A study of Mus musculus with 51 samples.

Results

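The balance of H3K4me3 between the paternal and the maternal allele in E6.5 epiblast was compared between embryos of oocytes without DNMT3A and DNMT3B (matDKO/CAST) and wild-type embryos (B6/CAST). H3K4me3, trimethylation of histone H3 at lysine 4, was measured by low-input ChIP-seq of MNase-digested chromatin. The measurement was the number of reads that strain variants assigned to each parent in each H3K4me3 peak. Every autosomal peak of the deposited allelic epiblast table was taken, whether or not it lay at an imprinted gene, which gave 33329 peaks. Of these, 20328 peaks (61.0%) were informative, that is they had 20 or more reads from 1 parent in a wild-type library of either cross, and these were tested.

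B6/CAST embryos came from C57BL6/Babr mothers and CAST/Ei fathers, and the reciprocal CAST/B6 embryos served here to describe the wild-type state, to choose the informative peaks and those of listed genes, and as a further group in the fit of total signal. matDKO/CAST embryos came from CAST fathers and B6/129 mothers with floxed Dnmt3a and Dnmt3b alleles deleted in the growing oocyte by Cre under the Zp3 promoter. These embryos carried the deleted copies from the mother and wild-type copies from the father, so they were heterozygous for both genes (Dnmt3a -/+, Dnmt3b -/+), and the comparison holds this genotype together with the loss of oocyte methylation. The mothers also differed in strain, since part of the matDKO maternal genome was of 129 origin. Each library was a pool of 4 epiblasts separated by hand, and each cross had 2 libraries. Nothing stated that the pools came from separate litters, so p-values measure at most the spread between pools. The main fit and the fit of bias in matDKO/CAST alone held the 2 alleles of a pool as separate, unpaired columns. Their p-values therefore rest on the spread of each allele's reads between pools, not on that of the ratio.

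H3K4me3 marks the nucleosomes at active and poised promoters, and it is largely excluded from promoters whose CpG dinucleotides are densely methylated. DNMT3A and DNMT3B place methylation on CpG dinucleotides, and in the oocyte they set the maternal methylation of germline differentially methylated regions (gDMRs). These regions keep the parental difference through preimplantation development, so that at most imprinted promoters of this class the maternal copy is methylated and silent and the paternal copy carries H3K4me3.

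The allelic reads in autosomal peaks ranged from 1.12 to 6.06 M per epiblast library. B6/CAST replicates 1 and 2 held 6.06 and 4.69 M, and matDKO/CAST replicates 1 and 2 held 4.20 and 1.12 M, so raw reads below should be read against these depths. The maternal share of all these reads was 51.6% and 50.5% in B6/CAST, compared with 51.8% and 52.7% in matDKO/CAST. At the promoters of 12 epiblast and pluripotency genes, 8 had more H3K4me3 in every epiblast library than in every library of extra-embryonic ectoderm (ExE), and none had the reverse. Their summed level was 116 to 160 RPKM (reads per kilobase, scaled to library depth) in matDKO/CAST epiblast, 137 to 163 in wild-type epiblast and 58.9 to 85.8 in ExE. Summed markers of ExE (9 genes) came to 58.9 to 75.6 RPKM in matDKO/CAST epiblast against 53.2 to 79.0 in wild-type epiblast. Summed markers of visceral endoderm (11 genes) came to 42.9 to 68.7 against 40.1 to 67.6 RPKM. In ExE itself these 2 sums were 70.2 to 96.5 and 51.5 to 84.7 RPKM, which overlap the epiblast ranges. Only 3 of the 9 ExE and 2 of the 11 endoderm markers were higher in every ExE library than in every epiblast library. These 2 sums therefore separate the tissues poorly and say little about purity.

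Promoter sequences of 6 peaks that carry the comparison are shown because CpG dinucleotides, the substrate of the deleted enzymes, are in capitals and can be counted against the outcome. Each runs from 250 bases before to 50 bases after a RefSeq start site of GRCm38.p6, on the strand of the gene. The promoters of Plagl1 (chr10:13090582-13090881, plus strand), a zinc finger factor, Snrpn (chr7:60005150-60005449, minus strand), a splicing protein, Peg3 (chr7:6730370-6730669, minus strand), a zinc finger protein, and Mcts2 (chr2:152686898-152687197, plus strand), an intronless gene within an intron of H13, were paternal in the wild type. Those of the signal peptide peptidase gene H13 (chr2:152669211-152669510, plus strand) and of Syt9 (chr7:107370540-107370839, plus strand), a synaptotagmin, were balanced in the wild type and became maternal in matDKO/CAST.
Plagl1: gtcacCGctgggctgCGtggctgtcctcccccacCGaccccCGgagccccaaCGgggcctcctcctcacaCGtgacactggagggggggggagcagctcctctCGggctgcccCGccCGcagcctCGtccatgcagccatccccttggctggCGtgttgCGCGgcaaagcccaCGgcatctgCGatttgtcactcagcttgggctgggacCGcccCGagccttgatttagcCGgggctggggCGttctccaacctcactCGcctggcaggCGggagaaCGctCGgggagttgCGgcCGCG
Snrpn: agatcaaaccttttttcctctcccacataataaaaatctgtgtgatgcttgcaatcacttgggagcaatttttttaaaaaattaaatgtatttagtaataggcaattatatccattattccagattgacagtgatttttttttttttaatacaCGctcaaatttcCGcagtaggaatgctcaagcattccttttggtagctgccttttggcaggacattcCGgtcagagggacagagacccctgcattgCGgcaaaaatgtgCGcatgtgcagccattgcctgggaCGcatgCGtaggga
Peg3: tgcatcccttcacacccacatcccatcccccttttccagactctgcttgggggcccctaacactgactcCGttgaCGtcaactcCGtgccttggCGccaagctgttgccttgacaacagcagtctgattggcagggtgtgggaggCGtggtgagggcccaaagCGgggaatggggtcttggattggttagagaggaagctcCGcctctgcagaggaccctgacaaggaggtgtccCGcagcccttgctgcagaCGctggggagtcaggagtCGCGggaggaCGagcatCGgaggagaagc
Mcts2: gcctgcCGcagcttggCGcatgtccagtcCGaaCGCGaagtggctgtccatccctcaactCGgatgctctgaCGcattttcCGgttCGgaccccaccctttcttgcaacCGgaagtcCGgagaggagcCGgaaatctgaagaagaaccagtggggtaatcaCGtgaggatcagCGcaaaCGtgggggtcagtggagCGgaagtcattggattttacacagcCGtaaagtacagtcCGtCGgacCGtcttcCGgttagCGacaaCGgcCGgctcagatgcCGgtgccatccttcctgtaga
H13: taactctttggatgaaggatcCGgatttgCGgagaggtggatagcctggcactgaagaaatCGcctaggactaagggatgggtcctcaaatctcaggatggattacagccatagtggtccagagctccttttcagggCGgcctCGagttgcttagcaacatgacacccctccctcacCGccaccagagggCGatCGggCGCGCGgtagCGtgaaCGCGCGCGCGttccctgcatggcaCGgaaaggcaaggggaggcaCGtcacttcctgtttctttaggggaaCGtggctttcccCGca
Syt9: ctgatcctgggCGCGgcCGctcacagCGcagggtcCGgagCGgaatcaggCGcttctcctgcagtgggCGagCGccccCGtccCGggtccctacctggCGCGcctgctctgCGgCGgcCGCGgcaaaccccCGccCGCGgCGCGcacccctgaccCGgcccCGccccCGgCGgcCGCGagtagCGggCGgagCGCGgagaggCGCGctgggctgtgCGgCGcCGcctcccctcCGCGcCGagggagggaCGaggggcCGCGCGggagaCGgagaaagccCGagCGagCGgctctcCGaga

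These windows held 26 CpG dinucleotides at Plagl1, 7 at Snrpn, 13 at Peg3, 25 at Mcts2, 21 at H13 and 49 at Syt9, so CpG-rich promoters were found with both outcomes. The median over 32851 RefSeq promoter windows was 7.

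Relative to B6/CAST, the paternal to maternal ratio in matDKO/CAST passed the test at 137 of 20328 peaks (0.674%). It was lower, that is shifted to the maternal allele, at 125 peaks (0.615%) and higher at 12 peaks (0.059%). Both matDKO/CAST libraries lay on one side of both B6/CAST libraries at each of the 137 peaks. The log2 difference over all informative peaks had a median of 0.01 after each allele column was scaled on its own, which centres it, and of -0.05 with 1 total per library, so changes are relative to the bulk of the peaks. The test was edgeR's quasi-likelihood test with Benjamini-Hochberg adjustment, and 675 peaks had an unadjusted p under 0.05. With the library as a block, which pairs the 2 alleles of each pool, 314 peaks (1.54%) passed, 273 lower (1.34%) and 41 higher (0.202%), and all 137 peaks were among them. The count rested on both matDKO/CAST libraries, since it was 11 without replicate 1 and 57 without replicate 2, with 126 and 81 of the 137 calls lost, and it was 219 without B6/CAST replicate 2.

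**Figure D1:**
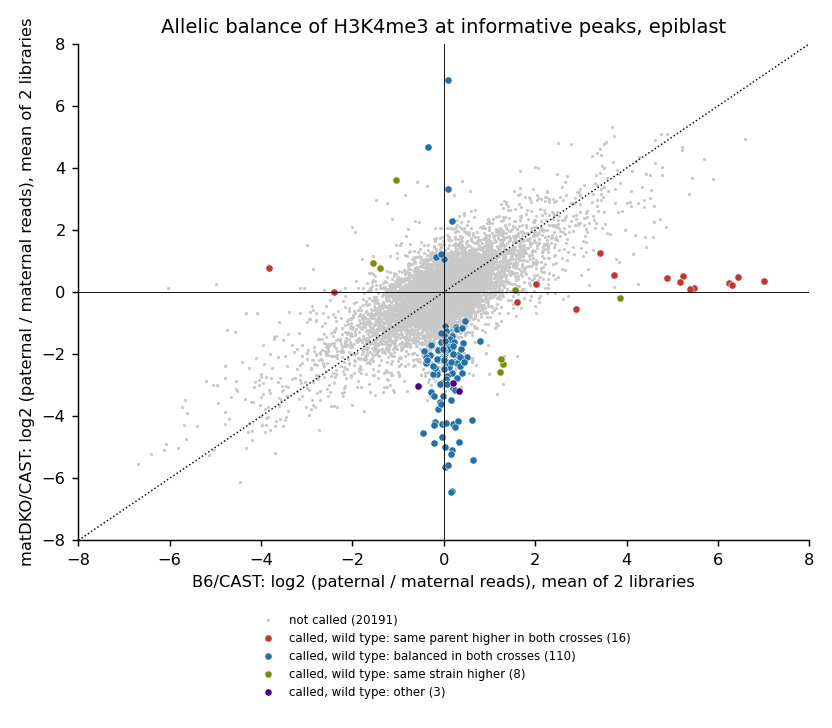
Allelic balance of H3K4me3 at 20328 informative autosomal peaks of E6.5 epiblast, as log2 paternal/maternal reads (mean of 2 libraries) in B6/CAST on the x axis and in matDKO/CAST on the y axis. Grey points did not pass the interaction test, and called peaks are red (16, parental bias in the wild type), blue (110, balanced), olive (8, strain bias) or purple (3, other), with the dotted line marking equal ratios. Of the red points, 14 have a paternal and 2 a maternal bias in B6/CAST, and of the blue points, which lie near 0 in B6/CAST, 103 were called lower and 7 higher.

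The called peaks were split by their wild-type state, with a log2 ratio of 1 in both reciprocal crosses as the limit. This split uses the same B6/CAST libraries as the contrast, so what follows on it is descriptive. Of 60 informative peaks with a bias towards the same parent in both wild-type crosses, 16 were called (26.7%), and all 16 were nearer to balance in matDKO/CAST, as were 50 of the 60. Of 17294 peaks that were balanced in both crosses, 110 were called (0.636%, beside 0.674% over all peaks), and all 110 were farther from balance in matDKO/CAST, as were 10253 of the 17294. The remaining 11 called peaks comprised 8 with a bias that followed the strain and 3 of mixed state.

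At the 16 parental peaks the bias was reduced, at 14 of them with a gain on the maternal allele. On the log2 scale the median ratio of paternal to maternal reads was 0.31 in matDKO/CAST, compared with 5.04 in B6/CAST (4.64 in CAST/B6). Maternal reads rose at these 14 in the allele's own contrast (0.762% of all peaks). The median log2 change over the 16 was 3.47 for maternal and -0.07 for paternal reads. Paternal reads fell at 2 of the 16 (6.89% of all peaks), Impact and Inpp5f. The total H3K4me3 signal, which needs no variant, had a median log2 change of 0.70 and was above 0 at 14 of 16, and it passed its own test (limma) at 2 of them, 1 in each direction (0.138% of all peaks).

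The 19 genes listed with a maternally methylated gDMR at their promoter had 18 informative peaks, counting for each gene the peak with most wild-type reads. Of these 18 peaks, 9 were lower (0.615% over all peaks), none was higher and 9 did not pass, with a median interaction of -2.01 beside 0.01 over all peaks. Maternal reads rose at 12 of the 18 (0.762% over all peaks). The median total change of the 18 was 0.47, above 0 at 16. With the library as a block 11 peaks passed, the added ones being Nap1l5 and the shared peak of Commd1 and Zrsr1. Wild-type parental bias at such loci was part of why they were listed, so these counts are no independent evidence of direction.

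Peg13, a noncoding RNA gene within the gene Trappc9 (start-site peak chr15:72807000-72812000), had 3 and 2 maternal against 441 and 302 paternal reads in B6/CAST. In matDKO/CAST the maternal reads were 254 and 56 and the paternal reads 291 and 67. The maternal share was thus 0.676% and 0.658% in B6/CAST, compared with 46.6% and 45.5% in matDKO/CAST, with no overlap. The log2 interaction was -6.84 ± 0.41 (SE, 2 libraries per cross, edgeR adjusted p = 1.77e-10).

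The Snrpn promoter (chr7:59999000-60008500), which also holds the start of Snurf, had 17 and 3 maternal reads against 594 and 590 paternal reads in B6/CAST. It had 573 and 116 maternal against 537 and 145 paternal reads in matDKO/CAST. The maternal allele thereby went from nearly unmarked to equal with the paternal one, with an interaction of -5.76 ± 0.37 (edgeR adjusted p = 4.55e-10). Total signal at this peak was 9.56 and 9.38 RPKM in B6/CAST, compared with 20.3 and 14.3 RPKM in matDKO/CAST, a log2 change of 0.82 that did not pass (limma adjusted p = 0.805).

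The shared promoter of Peg3 and Usp29 (chr7:6726500-6734000) had 3 and 7 maternal against 427 and 323 paternal reads in B6/CAST, then 340 and 58 against 330 and 75 in matDKO/CAST. The promoter of Kcnq1ot1 (chr7:143286000-143298000), the antisense RNA that silences its neighbours on the paternal chromosome, had 10 and 13 maternal against 507 and 336 paternal reads in B6/CAST. In matDKO/CAST it had 348 and 69 maternal against 382 and 83 paternal reads. At both promoters the paternal reads did not pass their own test and the maternal reads rose, by 6.10 (Peg3) and 5.02 (Kcnq1ot1) on the log2 scale.

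Airn, the antisense RNA of the Igf2r cluster (chr17:12740000-12744000), had 3 and 0 maternal against 140 and 86 paternal reads in B6/CAST, then 88 and 21 against 115 and 27 in matDKO/CAST. Mest, a hydrolase gene (chr6:30729000-30741500), had 7 and 15 maternal against 330 and 284 paternal reads in B6/CAST, then 131 and 61 against 264 and 47 in matDKO/CAST. Balance was therefore less uniform at Mest, where the maternal share was 33.2% and 56.5% in the 2 matDKO/CAST pools, whereas at Airn it was 43.4% and 43.8%. In matDKO/CAST alone, where 1457 peaks (7.17%) had a bias, 537 paternal (2.64%) and 920 maternal (4.53%), Mest had a fitted paternal bias of 0.69 on the log2 scale (edgeR adjusted p = 0.00312). This bias rested on replicate 1, since replicate 2 had more maternal than paternal reads, and the DESeq2 Wald test gave 215 peaks with a bias in place of 1457.

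**Figure D2:**
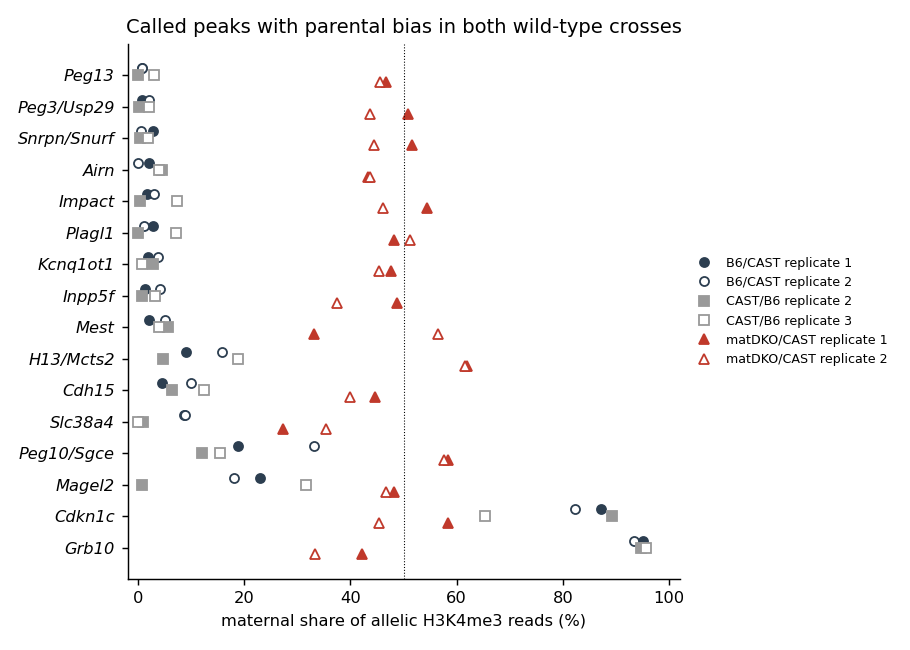
Share of allelic H3K4me3 reads on the maternal allele, in percent, at the 16 called peaks with parental bias in both wild-type crosses. Each point is 1 library, with circles for B6/CAST, squares for CAST/B6 and triangles for matDKO/CAST, and the dotted line marks balance. Of the 16 peaks, 14 move up from a paternal state and Grb10 and Cdkn1c move down from a maternal one, and Slc38a4 reaches 27.3% and 35.5% in matDKO/CAST.

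Among 4 further genes whose gDMR promoter was another peak than the most deeply read one, values at the biased peak were read after the results were seen. Plagl1 (chr10:13089500-13092500) had 3 and 1 maternal against 102 and 92 paternal reads in B6/CAST, then 69 and 20 against 74 and 19 in matDKO/CAST. Its other promoter, at chr10:13059500-13064500, stayed balanced, at 51.7% and 45.8% maternal in matDKO/CAST, and did not pass. Impact and Inpp5f likewise had a called peak at 1 promoter (interaction -5.47 and -4.75) and an uncalled peak at another. Cdh15, a cadherin (chr8:122864000-122866500, within the gene), was the parental peak whose total signal rose, from 4.98 and 3.89 RPKM to 11.1 and 9.48 RPKM (log2 change 1.14, limma adjusted p = 0.00471).

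Not all gDMR promoters behaved alike. Slc38a4, an amino acid transporter (chr15:97047500-97057000), kept a paternal bias of 1.35 in matDKO/CAST alone (edgeR adjusted p = 7.311e-10). Its maternal reads went from 26 and 20 to 86 and 33, and its paternal reads from 274 and 208 to 229 and 60, with an interaction of -2.10 ± 0.32 (edgeR adjusted p = 0.000419). At Peg10 and Sgce, which share a promoter, the interaction was -1.91 (edgeR adjusted p = 0.0248, DESeq2 Wald adjusted p = 0.203, and edgeR adjusted p = 0.0793 without B6/CAST replicate 1), and the B6/CAST maternal share was already 18.8% and 33.1%. Nap1l5 had 1 and 1 maternal against 15 and 23 paternal reads in B6/CAST, then 25 and 5 against 22 and 6 in matDKO/CAST. It did not pass (interaction -4.05 ± 1.04, edgeR adjusted p = 0.0881, and 0.00197 with the library as a block).

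Of the called parental peaks, 2 were maternally marked in the wild type and moved the other way. At Grb10, an adaptor of growth factor receptors, the called peak (chr11:12031500-12039500) had 78 and 56 maternal against 4 and 4 paternal reads in B6/CAST, then 8 and 2 against 11 and 4 in matDKO/CAST. The interaction was 4.67 ± 0.82 (edgeR adjusted p = 0.00199), maternal H3K4me3 fell by 2.78, and total signal fell by 1.06 on the log2 scale (limma adjusted p = 0.0153). At Cdkn1c, a cell cycle inhibitor (chr7:143458000-143470500), the reads were 129 and 102 maternal against 19 and 22 paternal in B6/CAST, then 35 and 15 against 25 and 18 in matDKO/CAST. Its interaction was 2.39 ± 0.54 (edgeR adjusted p = 0.0273, DESeq2 Wald adjusted p = 0.0956), and its maternal reads also fell.

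None of the 5 peaks at loci with a paternally methylated gDMR passed the interaction test (median 0.32), which at a share of 0.674% over all peaks is no result about the group. Meg3 and H19 kept their maternal bias. Meg3, a noncoding RNA (chr12:109538500-109546500), was 95.1% and 100% maternal in B6/CAST, compared with 98.3% and 98.0% maternal in matDKO/CAST. H19, a noncoding RNA (chr7:142572000-142583000), was 95.3% and 91.9% maternal in B6/CAST, compared with 94.5% and 87.3% in matDKO/CAST. The bias in matDKO/CAST alone passed at both (edgeR adjusted p = 6.768e-38 for Meg3 and 8.577e-25 for H19).

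Of 31 informative peaks at other imprinted promoters, 3 were lower (0.615% over all peaks), 2 were higher (0.059%) and 26 did not pass, with a median interaction of 0.06. Those lower included Magel2 (-1.75 ± 0.35, edgeR adjusted p = 0.00844, DESeq2 Wald adjusted p = 0.100) beside promoters shared with gDMR genes (Peg3 with Usp29, Mcts2 with H13), and those higher were Grb10 and Cdkn1c. With the library as a block 9 of the 31 passed. Zdbf2 was one of the 4 gained, with a maternal share of 26.3% and 37.1% in B6/CAST, compared with 53.9% and 48.9% in matDKO/CAST (interaction -1.15, edgeR adjusted p = 0.497, and 0.0133 with the block).

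Of the promoter peaks of 8 genes listed as noncanonical loci of the study, Slc38a4, whose promoter is also a gDMR, passed and 7 did not (0.674% over all peaks passed), with a median of 0.09. Gab1, an adaptor protein, had an informative peak inside the gene as well as at its promoter. The inner peak (chr8:80853000-80860500), parental in the wild type and added after its values were seen, had 5 and 11 maternal against 93 and 44 paternal reads in B6/CAST, then 17 and 11 against 82 and 25 in matDKO/CAST. In matDKO/CAST alone its paternal bias was 2.01 on the log2 scale (edgeR adjusted p = 5.224e-08). Its interaction of -1.12 ± 0.64 did not pass (edgeR adjusted p = 1.0), whereas its maternal reads alone rose by 1.82 on the log2 scale (edgeR adjusted p = 0.0399). The promoter peak (chr8:80877500-80882000) was balanced in both crosses, with a maternal share of 52.4% and 53.0% in B6/CAST, compared with 47.8% and 50.0% in matDKO/CAST. The assigned reads of this promoter fell on both alleles, however, from 211 and 150 to 22 and 6 maternal and from 192 and 133 to 24 and 6 paternal. Its total signal was 22.4 and 15.1 RPKM in B6/CAST, compared with 21.1 and 15.4 RPKM in matDKO/CAST, which is the pattern described below for many peaks.

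Most called peaks were not at imprinted genes. Within 1 Mb of a listed imprinted gene lay 20 of them, which was 2.69% of the 744 informative peaks there, whereas 0.597% of the peaks elsewhere were called. Of the other 117, 107 were lower and 10 higher. The 110 called peaks with a balanced wild type, 103 lower and 7 higher, had a median log2 paternal to maternal ratio of -2.18 in matDKO/CAST, beside 0.06 in B6/CAST (0.01 in the reciprocal cross). In the alleles' own contrasts of assigned reads, paternal reads alone fell at 48 of the 110 and maternal reads alone rose at 17. Both occurred at 17, the reads of both alleles fell at 20, and maternal reads alone fell at 7. The median change was 0.17 on the maternal and -1.72 on the paternal allele, and the same medians resulted with alleles that had no read set at a floor of 3 reads. The total signal had a median log2 change of -0.01, with the central 80% of the peaks between -0.21 and 0.18, and it passed at 1 of the 110, Gm14226. A gain on 1 allele and a loss on the other cancel in the total, so total signal cannot test the peaks where both occurred.

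At 11 called peaks neither matDKO/CAST library held a paternal read, as at 225 informative peaks in all. Chsy3, an enzyme of chondroitin synthesis (chr18:59173000-59178000), had 228 and 136 maternal against 239 and 152 paternal reads in B6/CAST, then 110 and 19 maternal against 0 and 0 paternal reads in matDKO/CAST. Syt9 (chr7:107369000-107372500), whose promoter is printed above, had 41 and 21 maternal against 38 and 26 paternal reads, and then 82 and 27 against 0 and 0. With 3 reads over both libraries as the floor, the maternal allele was at least 43.0-fold higher than the paternal allele at Chsy3 and at least 36.3-fold higher at Syt9.

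Dars, a transfer RNA synthetase gene (chr1:128415500-128419000), had 102 and 48 maternal against 102 and 45 paternal reads in B6/CAST, then 64 and 11 against 0 and 0 in matDKO/CAST. Snap91, a clathrin assembly protein of synapses (chr9:86878500-86882000), had 131 and 101 against 153 and 99 reads, and then 48 and 8 against 0 and 0. The shared promoter of Pop1 and Rida (chr15:34491000-34498000) had 117 and 68 against 111 and 62 reads, and then 130 and 1 against 0 and 0, so its call rested on matDKO/CAST replicate 1, and it was lost with the DESeq2 Wald test (adjusted p = 0.649). The edgeR adjusted p-values at these 5 peaks were 9.598e-07 (Chsy3), 1.331e-05 (Syt9), 0.000218 (Dars), 3.384e-05 (Snap91) and 0.00299 (Pop1). Total signal at them had log2 changes of -0.01 at Chsy3, 0.11 at Syt9, 0.00 at Dars, -0.02 at Snap91 and 0.13 at Pop1, none of which passed.

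The opposite pattern was seen at fewer peaks. Gm14226, a predicted gene (chr2:155017500-155023500), had 135 and 142 maternal against 158 and 125 paternal reads in B6/CAST, then 0 and 0 against 108 and 25 in matDKO/CAST, so that the paternal allele was at least 44.3-fold higher. Here total signal fell too, from 12.8 and 12.9 RPKM to 6.03 and 4.53 RPKM (log2 change -1.22, limma adjusted p = 0.0117). At Gm45104 (chr7:18402000-18405000), which followed the strain in the wild type, maternal reads went from 112 and 117 to 1 and 2 while paternal reads were 53 and 53 and then 41 and 11. A histone gene cluster with Hist2h2aa1, Hist2h2aa2 and Hist2h3c1 (chr3:96235000-96256500) had 4 and 0 maternal against 73 and 16 paternal reads in matDKO/CAST. Near-identical histone copies can share reads, so this value is uncertain.

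The other called higher peaks away from imprinted genes included Rnf157 and Cd59b, both with a bias that followed the strain in the wild type, and Fgf12, a fibroblast growth factor family member. Fgf12 (chr16:28751500-28755000) was 51.1% and 45.1% maternal in B6/CAST, compared with 19.3% and 15.4% maternal in matDKO/CAST, an interaction of 2.12 ± 0.45 (edgeR adjusted p = 0.0166). The DESeq2 Wald test ended the calls at Fgf12 (adjusted p = 0.159), Rnf157 (0.252) and Cd59b (0.326). Without B6/CAST replicate 1 the edgeR adjusted p was 0.0549 at Rnf157 and 0.0567 at Cd59b.

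Some called peaks were singled out after their values were seen, for what their genes do or where they lie. Dnmt3b, deleted on the maternal copy, has its peak at chr2:153637500-153658000. That is between the H13 and Raly peaks of chr2, with Gm14226 beyond Raly, and the internal Dnmt3a peak lies in the other deleted gene. The part of linkage to the deleted genes in these shifts was not tested. The H13 promoter (chr2:152668500-152672500) had 60 and 41 maternal against 68 and 53 paternal reads in B6/CAST, then 141 and 35 against 3 and 1 in matDKO/CAST (interaction -5.59 ± 0.53, edgeR adjusted p = 3.107e-07). The Mcts2 promoter inside the same gene (chr2:152685500-152697500) went from 12 and 20 against 121 and 106 to 93 and 24 against 57 and 15. Both promoters were shifted to the maternal allele, but from different starting points, Mcts2 ending at 62.0% and 61.5% maternal and H13 at 97.9% and 97.2%.

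The promoter peak shared by Raly and the agouti gene a (chr2:154785000-154797000) had few assigned reads in B6/CAST, 9 and 20 maternal and 17 and 24 paternal. In matDKO/CAST it had 300 and 81 maternal and 2 and 4 paternal reads, while its total signal was 9.42 and 7.28 RPKM and then 9.26 and 8.05 RPKM. At Crip1 and Crip2, LIM domain proteins (chr12:113138500-113158500), maternal reads went from 91 and 95 to 352 and 116 and paternal reads from 110 and 111 to 30 and 3.

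An internal promoter of Dnmt3a itself (chr12:3884500-3894500) had 162 and 168 maternal against 162 and 157 paternal reads in B6/CAST, then 272 and 67 against 63 and 25 in matDKO/CAST. Its interaction was -1.75 ± 0.31 (edgeR adjusted p = 0.00221). The upstream promoter of the gene (chr12:3805000-3813000) was balanced in both crosses, at 49.3% and 53.2% and at 52.5% and 60.4% maternal, and did not pass.

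The contrast of each allele on its own called many more peaks than the contrast of the ratio. Reads assigned to the maternal allele were lower in matDKO/CAST at 1244 peaks (6.12%) and higher at 155 (0.762%), 1399 in all (6.88%). Reads assigned to the paternal allele were lower at 1401 peaks (6.89%) and higher at 26 (0.128%), 1427 in all (7.02%). Of these, 1010 peaks were lower on both alleles, with a median log2 change of -1.70 on the maternal and -1.90 on the paternal allele, values that held with alleles without a read (131 maternal, 155 paternal) set at the floor of 3 reads. At the same 1010 peaks total signal had a median log2 change of -0.04, with the central 80% between -0.21 and 0.12, and it passed its own test at none. By limma, total H3K4me3 changed at 28 of all 20328 peaks (0.138%), 13 up (0.064%) and 15 down (0.0738%).

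A difference in allele assignment lies along the same contrast. For matDKO/CAST, the study left out variants shared by 129 and CAST, which leaves fewer variants to assign either allele. It then realigned unassigned reads to 129 and CAST genomes and added the 129 reads to the maternal set, which adds reads to 1 allele only. Each matDKO/CAST library went through these steps and no B6/CAST library did, so for a single peak the effect of oocyte genotype on assigned reads and that of assignment cannot be told apart. Beside this stand the measured totals: the 16 parental peaks had a median total change of 0.70, the 110 balanced ones -0.01, and the 155 peaks with more maternal reads 0.21. These contrasts moved most with the libraries used, the maternal count being 438 without matDKO/CAST replicate 1, 834 without replicate 2 and 2369 without B6/CAST replicate 2. The paternal count was 458 without matDKO/CAST replicate 1 and 911 without replicate 2, and the total count was 10 and 5 without these libraries.

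**Figure D3:**
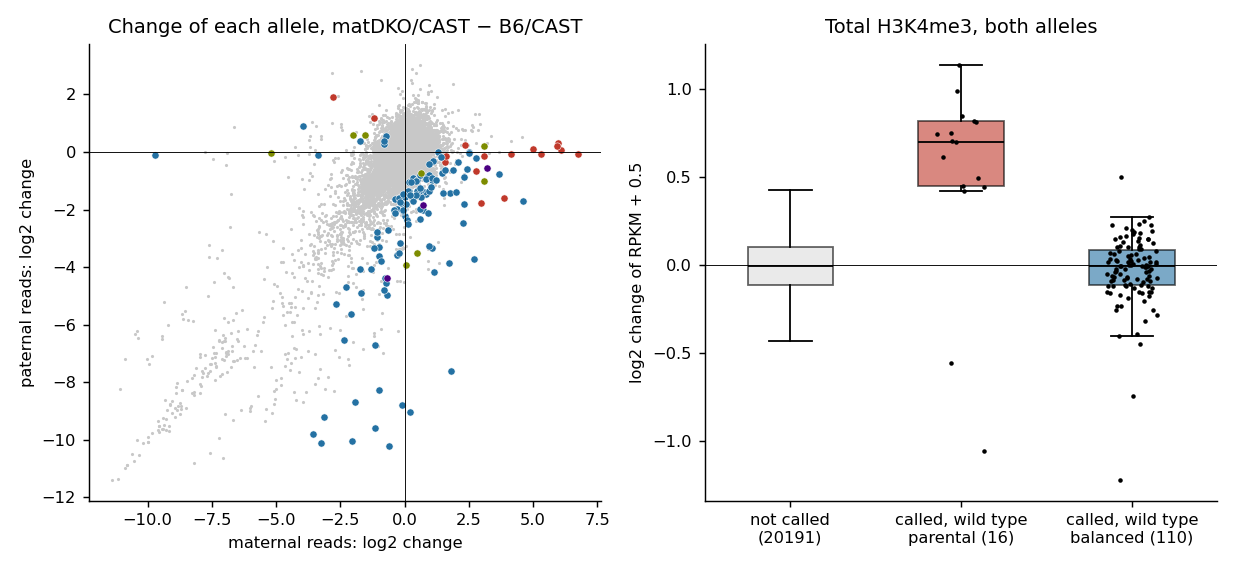
Left, log2 change of maternal (x axis) and paternal (y axis) H3K4me3 reads from B6/CAST to matDKO/CAST, with uncalled peaks in grey and called peaks in red (parental bias in the wild type), blue (balanced), olive (strain bias) or purple (other). Right, log2 change of total H3K4me3 (RPKM + 0.5) for uncalled, parental and balanced called peaks, with boxes at the median and quartiles, whiskers to the farthest value within 1.5 times the box length, and points for single called peaks. Parental peaks have a median total change of 0.70 and balanced ones of -0.01, and a band of grey peaks lies below 0 on both alleles.

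The called peaks were unevenly spread over the genome. Chromosome 7 held 43 of the 137 (31.4%) beside 7.15% of the informative peaks, and chromosome 2 held 27 (19.7%) beside 7.88%. Of the 117 called peaks away from imprinted genes, 70 (59.8%) had another called peak within 1 Mb, against 9.03% of 19467 uncalled peaks. Among windows of 5 Mb, 8 had 4 or more called peaks and together held 49, and they were picked for those calls. In chr7 from 15 to 20 Mb, 16 of 102 informative peaks were called and the median interaction over all 102 was -0.60, the lowest of 372 windows with at least 20 peaks. In chr2 from 120 to 125 Mb, 4 of 51 were called, with a median of -0.56. For comparison, the central 90% of these windows had medians from -0.16 to 0.25. In the chromosome 7 window 80.4% of the peaks had a negative interaction, and its median total change was 0.07. The other 6 windows had medians nearer 0 or above it, at -0.25 in chr2 from 115 to 120 Mb, -0.20 in chr2 from 155 to 160 Mb, -0.11 in chr7 from 20 to 25 Mb, -0.07 in chr15 from 100 to 105 Mb and -0.01 in chr1 from 125 to 130 Mb. In chr3 from 95 to 100 Mb the median was 0.25 and 21.5% of the peaks had a negative interaction, although 3 of its 4 calls were lower. The part of strain origin of these segments in the shift was not tested.

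**Figure D4:**
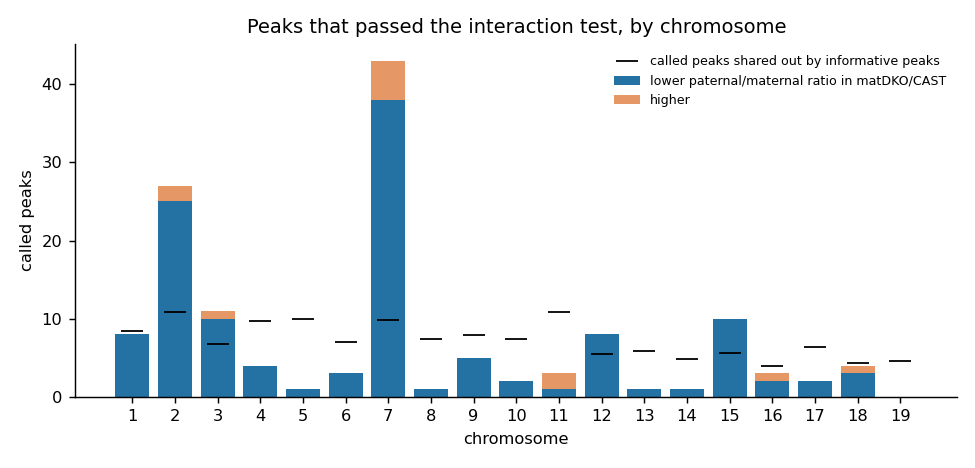
Number of called peaks (y axis) on each autosome (x axis), stacked by a lower (blue) or higher (orange) paternal to maternal ratio in matDKO/CAST. Black ticks give the 137 calls shared out in proportion to the informative peaks, and chromosomes 7 and 2 stand above them with 43 and 27 calls while chromosome 19 has none.

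Called peaks were nearly all promoters. A transcription start site lay in 132 of 137 (96.4%), compared with 68.1% of all informative peaks. Median signal in B6/CAST was 10.2 RPKM at called peaks, 9.84 at all peaks with a start site and 6.59 over all informative peaks. The part of signal strength in this share was not tested. Their ratio of observed to expected CpG had a median of 0.423, beside 0.366 over all peaks and 0.422 over all peaks with a start site. Within the class, parental peaks (0.426) and balanced ones (0.423) had like ratios, and the median widths were 7750 bp and 5000 bp. Called or not, all parental peaks had a median ratio of 0.329 and a width of 3500 bp, beside 0.387 and 4000 bp for all balanced peaks. The letters TGCCGC or GCGGCA, the core read by the imprint factor ZFP57 in its methylated form, were searched on both strands. They were in 7 of 16 RefSeq promoter windows (43.8%) that fell in 11 of the parental called peaks, in 30 of 174 windows (17.2%) in 95 of the balanced called peaks, and in 3813 of 32851 windows (11.6%) overall. The median number of CpG dinucleotides per window was 11.5, 20 and 7 in these groups.

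The same contrast was read in ExE, the extra-embryonic tissue that borders the epiblast, from separate libraries of pooled ExE. There 207 of 23211 informative peaks passed (0.892%), 188 lower (0.81%) and 19 higher (0.0819%). With the library as a block 459 of them passed, 395 lower and 64 higher, and the overlaps below use the fit without it. Of the 137 called epiblast peaks, 134 overlapped an informative ExE peak, and 102 of those were called in ExE, all in the same direction. These 102 were 74.5% of the epiblast calls, and 48.8% of the ExE calls overlapped a called epiblast peak. Among 17708 uncalled epiblast peaks with an ExE peak, 107 (0.604%) were called in ExE. At 131 of the 134, both matDKO/CAST ExE libraries were on the same side of both B6/CAST ones as in epiblast, and none was fully on the opposite side. The ExE libraries came from the same crosses and went through the same assignment steps, so genotype, strain and assignment cannot be told apart there either. Without B6/CAST ExE replicate 1 or 2 the ExE count was 53 and 57.

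At Peg13, ExE had 206 and 167 maternal against 188 and 164 paternal reads in matDKO/CAST, after 9 and 5 against 428 and 263 in B6/CAST. At Syt9, ExE had 64 and 38 maternal reads and no paternal read in matDKO/CAST. At the internal Dnmt3a promoter, ExE had 103 and 84 maternal against 36 and 19 paternal reads, an interaction of -1.75 ± 0.29 (edgeR adjusted p = 0.00197). The shift was thus seen in both tissues at these peaks, while Fgf12 (-0.09 in ExE), Rnf157 and Magel2 (-0.10 in ExE) were called in epiblast and did not pass in ExE. The difference between the tissues was not tested.

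**Figure D5:**
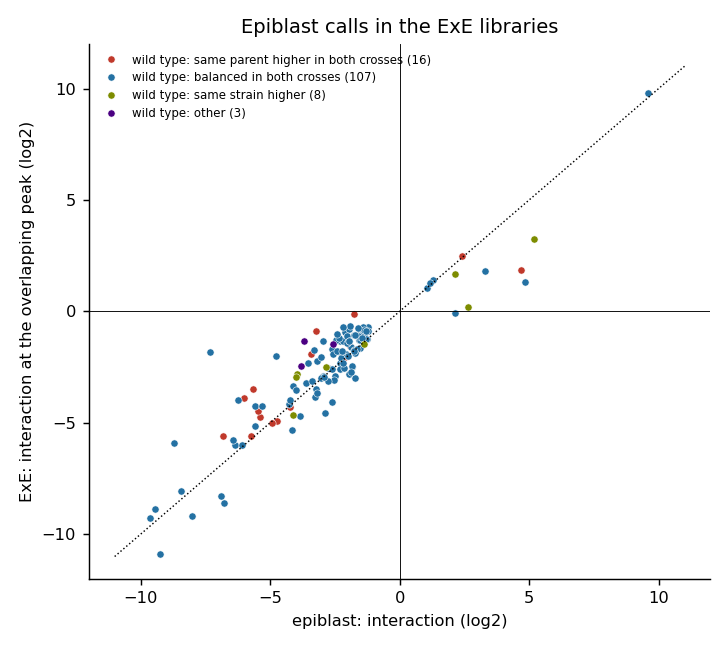
Interaction (log2, paternal over maternal, matDKO/CAST against B6/CAST) at 134 called epiblast peaks on the x axis and at the overlapping ExE peak on the y axis, coloured by the wild-type state in epiblast, with the dotted line marking equal values. The sign is the same in both tissues at 133 of the 134 peaks, Fgf12 being the exception.

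Other histone marks in epiblast of the same crosses gave few calls, from fewer allelic reads (0.271 to 1.71 M per library in these 2 crosses). Their matDKO/CAST libraries went through the same assignment steps, so genotype, strain and assignment cannot be told apart in these marks either. For H3K36me3, the mark of transcribed gene bodies, 18 of 11076 peaks passed (0.163%), and 4 of the 56 overlapping a called H3K4me3 peak did, all in the same direction. At the peak over Raly and a, H3K36me3 had 19 and 38 maternal against 17 and 34 paternal reads in B6/CAST, then 40 and 116 against 2 and 7 in matDKO/CAST (interaction -3.88 ± 0.50, edgeR adjusted p = 1.767e-08). The other peaks were Snrpn (-2.33), Kcnq1ot1 (-1.49) and Grb10 (1.62). Without matDKO/CAST replicate 3 the H3K36me3 count was 3, and it was 11 and 10 without B6/CAST replicate 1 or 2.

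For H3K27me3, the mark of Polycomb repression, 16 of 8924 peaks passed (0.179%), and 4 of the 54 overlapping a called H3K4me3 peak did. With the library as a block 46 of the 8924 passed, 37 lower and 9 higher. At Grb10, H3K27me3 had 27 and 31 maternal against 358 and 300 paternal reads in B6/CAST, then 348 and 65 against 274 and 52 in matDKO/CAST. The maternal allele there had fewer H3K4me3 and more H3K27me3 reads in matDKO/CAST (H3K27me3 interaction -3.65 ± 0.34, edgeR adjusted p = 5.628e-08). At Cdkn1c the H3K27me3 interaction was -1.89 ± 0.28, again opposite to H3K4me3. At Plagl1 (-3.18 ± 0.49) and at Sema5b (-1.70 ± 0.32) it had the direction of H3K4me3. Without matDKO/CAST replicate 1 the H3K27me3 count was 1, without replicate 2 it was 8, and without B6/CAST replicate 2 it was 31.

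In the other listed gene groups, counting only the most deeply read peak of each gene and so not the internal Dnmt3a promoter, no peak was called. At a share of 0.674% over all peaks, counts of 0 in lists of this size are no result about the groups. None of 8 peaks at germline genes that DNA methylation silences passed the interaction test (median -0.05), nor did 12 at epiblast and pluripotency genes (0.03) or 12 at genes of the methylation machinery (-0.05). The same held for 11 housekeeping genes (-0.04), 9 ExE markers (0.00) and 11 visceral endoderm markers (0.07). In the block fit 1 of these passed, Ywhaz, a 14-3-3 protein (interaction -1.17, edgeR adjusted p = 1.161e-05 with the block and 0.387 without), where the maternal share was 45.4% and 50.9% in B6/CAST, compared with 69.5% and 66.7% in matDKO/CAST.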

How the data were processed

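H3K4me3, H3K36me3 and H3K27me3 were measured by ULI-NChIP-seq in pooled E6.5 epiblast or ExE. Per the labels and methods, the authors trimmed reads with Trim Galore, aligned them with Bowtie2 2.3.2 to GRCm38 with strain variants masked, split them by allele with SNPsplit, and called peaks with chromstaR per cross and tissue before merging them. The deposited allelic tables hold raw read counts per peak and parent, over peaks de-duplicated between the crosses. The deposited signal table gives RPKM in 1 kb windows, and a peak's total was the mean of its windows. Coordinates are the deposited start and end columns, on GRCm38. In 22% of rows the deposited peak name gives an earlier end (median difference 500 bp) at the same start. The columns were used throughout, and the effect of the shorter ends on gene assignment and totals was not tested.

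Counts were tested with edgeR 4.0.16 (quasi-likelihood, TMM factors per allele column, Benjamini-Hochberg over informative autosomal peaks, threshold 0.05), with 1 mean per cross and parent. A lower interaction means a lower paternal to maternal ratio in matDKO/CAST than in B6/CAST. Log2 RPKM + 0.5 was tested with limma 3.58.1, and DESeq2 1.42.0 served as an alternative. Fold changes of total signal are on this log2 scale, which understates changes of weak peaks. Each script was tested on simulated data. The 2 allele columns of a library share a pool, which is the pairing used as the library block. Their deviations from the group mean correlated at 0.576 in B6/CAST and 0.103 in matDKO/CAST. Replicates of a cross differed by more than sampling noise.

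Peaks were assigned to genes by GENCODE start sites within 2 kb. The named peaks were, for each list gene, its informative peak with most wild-type reads, and the 10 called peaks with the largest interaction in each direction, with the 5 largest away from imprinted genes. Other peaks are said to have been chosen after their values were seen. The peaks, lists and tests were chosen with earlier results of these data known. Values after ± are standard errors of the edgeR fit, and floors cover counting error only.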

Additional observations from a re-analysis of the deposited data

How the results depend on the processing

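The count of 137 peaks stayed within 1.5 times under DESeq2 size factors (138), column totals (136), 1 total per library (138), no filter (173), at least 20 reads in every library (100), an adjusted p of 0.01 (92) and a fit of all 3 crosses (145). It was 89 with the DESeq2 Wald test and 314 with the library block. The library block gave 2293 peaks for bias in matDKO/CAST alone (1457 without it), 459 for ExE (207), and 46 for H3K27me3 (16). The Wald test gave 215 peaks for bias in matDKO/CAST alone and 3 for H3K36me3 (18). For total signal, no filter gave 109 peaks (28). None of the 137 called peaks turned its sign under these settings, although only 105 of them were kept by the filter of 20 reads in every library. Of the 137 calls, 48 were lost with the Wald test, 8 with column totals, 126 without matDKO/CAST replicate 1 and 81 without replicate 2. Of the 107 uncalled list peaks, 56 turned sign under at least 1 alternative, among them Meg3 (-0.54, and 4.62 without B6/CAST replicate 1). The causes were not tested.

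Leaving out 1 library at a time gave 11 to 219 peaks for the interaction, 438 to 2369 for the maternal and 458 to 2001 for the paternal allele, 53 to 208 for ExE, 3 to 21 for H3K36me3, 1 to 31 for H3K27me3 and 5 to 41 for total signal. The lone library of a cross was assumed to vary like the other cross. The bias in matDKO/CAST alone could not be fitted with 1 library, for lack of residual degrees of freedom.

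Replicate numbers shared between crosses did not pair the samples. Deviations of same-numbered libraries correlated at 0.222 for both alleles together and at 0.0513 for the ratio. With the number as a replicate block, 222 peaks passed for the interaction, 2139 for the maternal allele, 2001 for the paternal allele and 56 for total signal. The shallowest epiblast H3K4me3 library was matDKO/CAST replicate 2, with 1.12 M allelic reads. The part of depth in these counts was not tested.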
